A study of Mus musculus with 12 samples.

Results

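Tissue inhibitors of metalloproteinases (TIMPs) and the plasminogen activator system were followed as 9 genes, Timp1, Timp2, Timp3, Timp4, Serpine2, Serpinb2, Plau, Plaur and Plat, taken by symbol from the 49315 genes of 12 RNA-seq libraries. The rule names the genes and uses no measured value, but the list was drawn up with earlier results of these data known. The libraries came from mouse adult fibroblasts (MAFs), primary cells of the ear, of wild-type (WT) mice and of BMAL1 -/- (KO) mice, which lack a core transcription factor of the circadian clock. Control cells of each genotype were sham irradiated (0 Gy) and senescent cells received 20 Gy of X-rays. Per the methods of the study, irradiated cells were then kept in culture for some weeks more. No such period is given there for control cells, so time in culture cannot be told apart from senescence. All 4 groups, 3 libraries each, were given 100 nM dexamethasone for 2 h to set their clocks and were collected 12 h later. Every value below is thus from 1 time after dexamethasone, in glucocorticoid-treated cells. That time need not be the same clock phase in each group. The study describes KO cells as arrhythmic and reports a longer Bmal1 period in senescent WT cells. The labels do not say whether replicates were separate cultures or animals, and p-values measure the spread between these libraries, which may be technical.

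Both systems set how fast the matrix around cells is broken down. TIMPs are secreted proteins that bind and block matrix metalloproteinases (MMPs) and related ADAM and ADAMTS enzymes, and TIMP3 stays bound to the matrix. The plasminogen activators uPA (Plau) and tPA (Plat) turn plasminogen into plasmin, a protease that digests fibrin and can activate pro-MMPs. The receptor uPAR (Plaur) holds uPA at the cell surface, and the serpins encoded by Serpine2 (protease nexin 1) and Serpinb2 (PAI-2) inhibit the activators. Many of these proteins are listed among the factors that senescent fibroblasts secrete.

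Total counts were 23923030 to 31736083 per library, at which the floor of 3 counts stood at 0.0945 to 0.125 CPM (reads counted for a gene among every 1000000 counted reads, with totals scaled). Arntl, the gene of BMAL1, was at 29.8 to 37.3 CPM in the WT libraries, 11.8 to 15.2 CPM in KO control and 25.3 to 27.4 CPM in KO senescent libraries, so reads of the targeted gene remained in KO cells. In senescent cells Cdkn1a, which encodes p21, was higher and the proliferation gene Mki67 lower in both genotypes (log2 fold changes 1.92 and −3.70 in WT, 1.63 and −4.46 in KO cells, adjusted p at most 6.79e-07). The 7 fibroblast markers, led by collagens, were detected in each group, with summed levels of 16301 to 17099 CPM in WT control, 6589 to 6828 in WT senescent, 21036 to 22661 in KO control and 8408 to 8875 in KO senescent libraries. Single markers went both ways. With senescence 4 rose and 3 fell in WT cells at an adjusted p under 0.05 (29.2% and 27% of all genes tested). In KO cells 2 rose and 4 fell (28.5% and 28.6%). The 6 chondrocyte markers (Col2a1, Acan, Col9a1, Matn3, Cnmd and Sox9) summed to 7143 to 8813 CPM in WT control, 1961 to 2279 in WT senescent, 4757 to 6445 in KO control and 634 to 735 in KO senescent libraries, none of them at 0. All 6 fell with senescence in both genotypes at an adjusted p under 0.05 (27% of all genes tested in WT and 28.6% in KO cells). The interaction passed as lower for all 6 (11.7%), with 5 called (log2 fold change also over 1 in size, 3.66% in either direction). When the senescent groups were compared, KO levels were below WT levels for all 6 markers (11.8%), each of them called (3.48%). Between the control groups 2 of the 6 passed with KO below WT (4.96%), and 0 were called (2.54%). Summed markers of macrophages stayed between 8.44 and 16 CPM and those of mast cells at or under 0.27 CPM, with Mcpt4 at 0 in all libraries. Skeletal muscle markers (Acta1, Ckm, Myh1 and Myh4) summed to 45.9 to 58.6 CPM in WT control, 13.6 to 14.8 in WT senescent, 22.7 to 33.3 in KO control and 15.1 to 21.8 in KO senescent libraries. Of the 4, 3 were called higher for the interaction (3.66% of all genes were called in either direction). With senescence 1 was called lower in WT cells (17.4% called). In KO cells 2 were called higher (18.8% called) and 1 passed as lower (28.6%). Myh4 in WT senescent and Myh1 in KO control libraries held at most 3 counts. Keratinocyte markers summed to 10.4 to 15 CPM in WT control, 20.5 to 23.8 in WT senescent, 11.8 to 12.5 in KO control and 18.6 to 20.2 in KO senescent libraries. Those of endothelium summed to 1.99 to 7.86 CPM and those of melanocytes to 0.841 to 4.78 CPM over all libraries. In bulk RNA, fewer cells of a type and less RNA per cell cannot be told apart, and the part of these marker genes in the results below was not tested. KO control replicate 1 and KO senescent replicate 3 stood apart from the other libraries of their groups (chi-square per degree of freedom against the others of 13.9 to 19.6). The remaining pairs of KO libraries gave 3.85 and 8.34. Pairs of WT libraries gave 3.22 to 11.8, the highest for WT control replicates 2 and 3. Values without both KO libraries that stood apart are given where a test changed side and for the differences between genotypes that moved most.

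The genes lie apart on GRCm38, by the GENCODE M21 annotation. Timp1 (ENSMUSG00000001131) is on chromosome X, 20870166 to 20874735, plus strand. Timp2 (ENSMUSG00000017466) is on chromosome 11, 118301069 to 118355740, minus strand. Timp3 (ENSMUSG00000020044) is on chromosome 10, 86300372 to 86349506, plus strand, and Timp4 (ENSMUSG00000030317) on chromosome 6, 115241892 to 115252205, minus strand. These 3 TIMP genes, Timp1, Timp3 and Timp4, each lie inside the span of a synapsin gene on the opposite strand (Syn1, Syn3 and Syn2). The exons of Timp3 and Timp4 overlap exons of their hosts. Whether counting used strand is not given in the sources used here, so reads in the overlaps cannot be told apart. Syn3 was at 1.72 to 4.06 CPM as a group mean, far under Timp3, whereas Syn2 (0.831 to 1.43 CPM) was as low as Timp4. Serpine2 (ENSMUSG00000026249) is on chromosome 1, 79794197 to 79861180, minus strand, and Serpinb2 (ENSMUSG00000062345) on the same chromosome, 107511423 to 107535478, plus strand, with exons that overlap Serpinb10. Serpinb10 is also on the plus strand, so strand would not tell reads in that overlap apart, and its level is not given here. Plau (ENSMUSG00000021822) is on chromosome 14, 20836660 to 20843385, Plaur (ENSMUSG00000046223) on chromosome 7, 24462484 to 24475968, and Plat (ENSMUSG00000031538) on chromosome 8, 22757727 to 22782844, all on the plus strand.

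The study asks about BMAL1 and the AP-1 transcription factors in senescence, so the 250 bases before the RefSeq start of each gene (GRCm38.p6) were searched for the AP-1 element TGACTCA or its reverse complement TGAGTCA, the E-box CACGTG that BMAL1 with CLOCK binds, and the related cAMP response element TGACGTCA. A window was matched for 7 of the 9 genes, Timp1, Timp2, Timp3, Timp4, Serpine2, Serpinb2 and Plaur. Plaur held the AP-1 element, with its first base 69 bases before the start, and none of the other matched windows held any of the 3 elements. Of all 32851 windows of this length, 4.46% held the AP-1 element, 6.02% the E-box and 1.55% the cAMP response element. A match is a string of letters and not a measured site. The windows of Plaur and Timp1 are shown because their log2 fold changes with senescence had opposite signs in WT and KO cells. Those of Serpinb2 and Timp4 are shown because these genes had the largest log2 fold changes with senescence in WT cells. Capitals mark the AP-1 element.
Plaur, chr7:24462233-24462482, plus strand: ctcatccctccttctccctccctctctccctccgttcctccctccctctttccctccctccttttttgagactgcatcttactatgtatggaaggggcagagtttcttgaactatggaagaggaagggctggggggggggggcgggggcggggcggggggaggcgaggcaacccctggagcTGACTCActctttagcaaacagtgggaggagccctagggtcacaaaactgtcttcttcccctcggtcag
Timp1, chrX:20869916-20870165, plus strand: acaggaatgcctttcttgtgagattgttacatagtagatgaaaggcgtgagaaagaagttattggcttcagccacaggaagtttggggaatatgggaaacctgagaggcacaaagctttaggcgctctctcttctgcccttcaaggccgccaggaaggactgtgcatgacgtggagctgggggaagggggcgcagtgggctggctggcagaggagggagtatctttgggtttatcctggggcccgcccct
Serpinb2, chr1:107511173-107511422, plus strand: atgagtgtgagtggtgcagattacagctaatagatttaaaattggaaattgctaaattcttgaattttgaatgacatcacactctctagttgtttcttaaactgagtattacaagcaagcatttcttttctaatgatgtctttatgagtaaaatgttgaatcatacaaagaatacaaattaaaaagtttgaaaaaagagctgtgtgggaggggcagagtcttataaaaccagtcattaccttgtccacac
Timp4, chr6:115252206-115252455, minus strand: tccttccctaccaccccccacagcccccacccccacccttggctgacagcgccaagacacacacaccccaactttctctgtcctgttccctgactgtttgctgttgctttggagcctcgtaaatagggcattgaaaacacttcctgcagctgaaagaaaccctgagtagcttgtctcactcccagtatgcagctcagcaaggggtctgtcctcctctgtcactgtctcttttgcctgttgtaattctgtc

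Levels of different genes were compared per length, as CPM per kb of annotated exon. Timp1 was highest in all 4 groups, at 1251 ± 50.9 in WT control, 980 ± 21.8 in WT senescent, 1266 ± 138 in KO control and 1428 ± 112 CPM per kb in KO senescent cells (SD, n = 3 here and below). Timp2 (302 ± 8.44 CPM per kb in WT control cells) and Timp3 (246 ± 19.4) came next, and their order turned with the longest transcript in place of the exon union (317 and 425). Plaur (57.1 ± 1.84 CPM per kb in WT control), Serpine2 (24.6 ± 2.42), Plau (20.2 ± 1.72), Plat (5.01 ± 0.443) and Serpinb2 (1.79 ± 0.248) followed. Timp4 was last in every group, at 0.196 ± 0.0251 CPM per kb in WT control cells. Serpine2 and Plaur did not differ beyond their spread in WT senescent cells (41.9 ± 1.4 and 41.3 ± 1.4 CPM per kb), nor did Serpine2 and Plau in KO control cells (24.4 ± 2.49 and 23.5 ± 3.98). Both likenesses hold on exon union length alone, since with the longest transcript the means were 102 and 53.8 CPM per kb for the first pair and 59.7 and 23.8 for the second. Timp1, Timp2 and Timp3 were thus the abundant messages per length in each group.

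**Figure D1:**
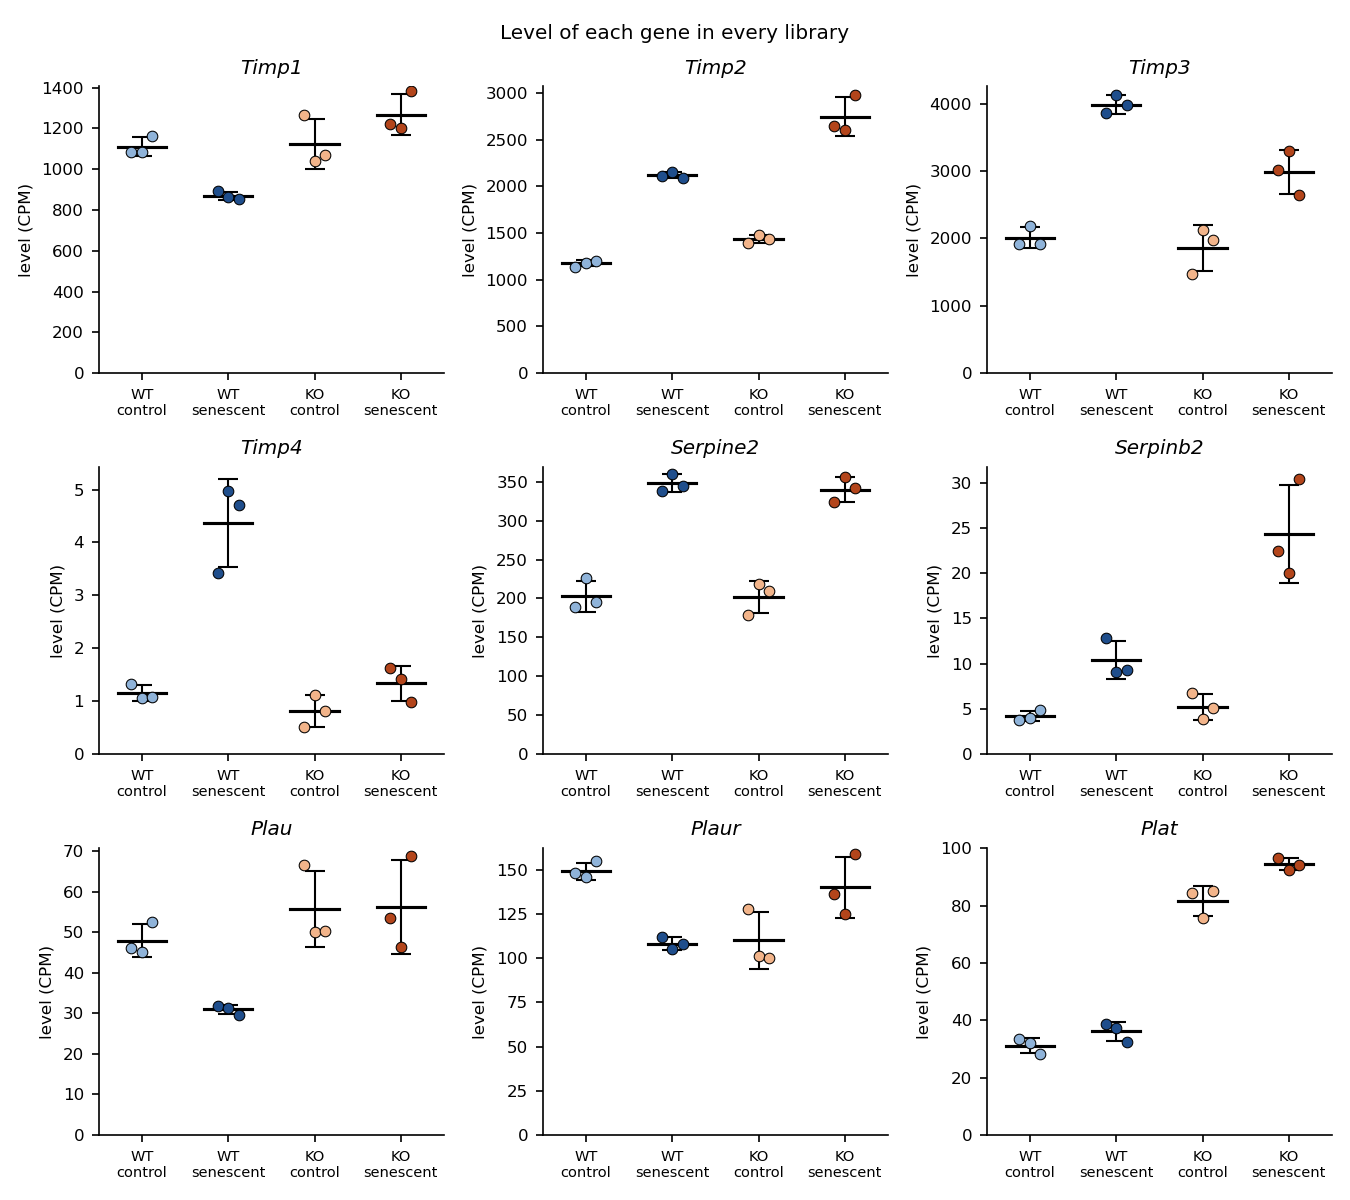
Level of each of the 9 genes in CPM (y axis, linear from 0, scaled separately per gene) in every library of the 4 groups on the x axis, with points for libraries, horizontal bars for means and error bars for SD (n = 3). Timp2, Timp3 and Serpine2 are higher in the senescent groups of both genotypes, Plat is higher in all KO libraries, and Timp4 is high in WT senescent libraries alone, at 3.43 to 4.98 CPM.

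Changes were tested for all 17416 genes that passed the low count filter, which the 9 genes did. A gene passed at an adjusted p under 0.05 (edgeR's quasi-likelihood test, Benjamini-Hochberg adjustment over all genes tested, for every adjusted p below unless another test is named) and was called where its log2 fold change was also over 1 in size. With senescence in WT cells 6 of the 9 genes rose and 3 fell, where 29.2% of all genes tested rose and 27% fell. In KO cells 7 rose and none fell, the other 2 being Timp4 and Plau, beside 28.5% and 28.6% of all genes. The call was met by Timp4 and Serpinb2 in WT (17.4% of all genes were called) and by Serpinb2 in KO cells (18.8%). The median log2 fold change of the 9 genes was 0.77 in WT and 0.68 in KO cells, and over all genes it was 0.025 and −0.003. The interaction, the KO log2 fold change less the WT one, passed for Timp1 and Plaur as higher (9.24% of all genes) and for Timp4 as lower (11.7%), and Timp4 was called (3.66%).

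Timp1, an inhibitor of secreted MMPs that is also known as a growth factor for several cell types, fell in WT senescent cells and not in KO cells. WT control libraries (replicates 1 to 3, in this order for each gene) held 1086, 1084 and 1163 CPM and WT senescent libraries 892, 863 and 855 CPM. KO control libraries held 1265, 1040 and 1068 CPM and KO senescent libraries 1221, 1201 and 1382 CPM. The WT groups were separate, the KO groups overlapped through control replicate 1, and each KO senescent library lay above all WT libraries. The log2 fold change was −0.35 in WT (SE 0.07, adjusted p 0.000163) and 0.17 in KO cells (SE 0.07, adjusted p 0.0329), and the interaction was 0.53 (SE 0.10, adjusted p 0.000682). The rise in KO cells did not pass without KO control replicate 2 (0.12, adjusted p 0.189), without KO control replicate 3 (0.13, 0.158), without KO senescent replicate 3 (0.105, 0.191) or with only the KO groups in the fit (0.19, 0.0609), while the interaction passed under all 18 alternatives (adjusted p at most 0.00335). Between genotypes Timp1 did not differ detectably in control cells (0.02, 95% interval −0.12 to 0.16) and was 1.46-fold higher in KO senescent than in WT senescent cells (log2 0.54, SE 0.07, adjusted p 7.64e-06).

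Timp2, which inhibits MMPs and also takes part in the activation of pro-MMP2 at the cell surface with MT1-MMP (Mmp14), rose to a like extent in both genotypes. WT control libraries held 1139, 1182 and 1204 CPM and WT senescent libraries 2108, 2157 and 2093 CPM. KO control libraries held 1392, 1476 and 1433 CPM and KO senescent libraries 2645, 2605 and 2981 CPM. No libraries overlapped between any groups, and the order from WT control through KO control and WT senescent to KO senescent held for every library. The rise was 1.8-fold in WT (log2 0.85, SE 0.05, adjusted p 1.36e-11) and 1.91-fold in KO cells (0.94, SE 0.05, adjusted p 2.61e-12), and the difference of the responses was 0.09 (95% interval −0.07 to 0.24, adjusted p 0.453). Timp2 was higher in KO than in WT cells by 0.29 in control (adjusted p 0.000681) and by 0.37 in senescent cells (adjusted p 2.19e-05) on the log2 scale.

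Timp3, the matrix-bound TIMP and an inhibitor of ADAM17 and the aggrecanases, was measured on 36885 to 122767 counts per library. WT control libraries held 1911, 2190 and 1921 CPM, and WT senescent ones 3860, 4129 and 3973 CPM. In KO cells it was at 1475, 2126 and 1974 CPM in control and 3013, 3292 and 2649 CPM in senescent libraries. Senescent libraries were above control libraries in both genotypes, and all KO senescent libraries were below all WT senescent ones. The rise was 1.99-fold in WT (log2 0.99, SE 0.13, adjusted p 8.4e-05) and 1.61-fold in KO cells (0.68, SE 0.13, adjusted p 0.0011). The WT change was just under the fold threshold and was over it without WT senescent replicate 1 (1.01) or WT control replicate 2 (1.06). The interaction of −0.31 (95% interval −0.71 to 0.10) did not pass (adjusted p 0.281), but it passed without KO control replicate 1 (−0.45, adjusted p 0.0061) and without the 2 KO libraries that stood apart (−0.37, 0.00257). In senescent cells Timp3 was lower in KO than in WT (−0.42, adjusted p 0.041), a difference that did not pass without WT control replicate 3, any of the WT senescent libraries, KO senescent replicates 1 or 3 or control replicate 3 of the KO group (adjusted p 0.0502 to 0.16), nor without a low count filter (0.0898), and that stood at −0.34 (adjusted p 0.000239) without the 2 KO libraries that stood apart. In control cells the KO difference was −0.11 (95% interval −0.40 to 0.18).

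Timp4, an inhibitor best known from heart and vessels, was a rare message here and moved most between genotypes in senescent cells. The WT control libraries gave 1.33, 1.06 and 1.08 CPM, and WT senescent ones 3.43, 4.98 and 4.7 CPM. KO control libraries held 0.52, 1.11 and 0.815 CPM and KO senescent libraries 1.62, 1.42 and 0.978 CPM. These levels rest on 13 to 148 counts per library. WT senescent libraries stood above all others, and the KO groups overlapped. The WT rise was 3.77-fold (log2 1.91, SE 0.27, adjusted p 4.16e-06). The KO change was 0.69 (SE 0.30, adjusted p 0.0582), which passed without KO senescent replicate 3 (0.87, 0.0255) or KO control replicate 2 (0.99, 0.0204). The interaction was −1.22 (SE 0.41, adjusted p 0.0396) and did not pass without WT control replicates 2 or 3, WT senescent replicates 2 or 3, KO senescent replicate 3, or KO control replicates 2 or 3, with adjusted p up to 0.183 and a value of −0.92 without KO control replicate 2. In senescent cells the KO level was lower (log2 −1.71, SE 0.27, adjusted p 6.9e-05), and this was called under all 18 alternatives. Syn2, whose exons overlap Timp4, changed by −0.50 in WT (adjusted p 0.181) and 0.41 in KO cells (0.293), and neither change passed.

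Serpine2, which encodes protease nexin 1, an inhibitor of thrombin, uPA and plasmin, gave nearly the same values in both genotypes. WT control libraries held 189, 226 and 195 CPM, and WT senescent ones 338, 360 and 345 CPM. In KO cells it was at 179, 219 and 209 CPM in control and 324, 356 and 342 CPM in senescent libraries. Senescent and control libraries were separate in both genotypes, and libraries of the same state overlapped between genotypes. The rise was 1.71-fold in WT (log2 0.77, SE 0.07, adjusted p 3.43e-08) and 1.68-fold in KO cells (0.75, SE 0.07, adjusted p 4.89e-08), and the interaction was −0.02 with a 95% interval of −0.24 to 0.19 (adjusted p 0.909). The KO difference had an interval of −0.16 to 0.15 in control and −0.18 to 0.12 in senescent cells.

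Serpinb2, which encodes PAI-2, an inhibitor of uPA that is largely kept inside the cell, rose most of the 9 genes in KO cells. In the WT control group, libraries had 3.78, 3.99 and 4.87 CPM, and WT senescent ones 12.8, 9.08 and 9.29 CPM. KO control libraries held 6.72, 3.87 and 5.11 CPM and KO senescent libraries 22.5, 20 and 30.4 CPM. The control groups overlapped, and each KO senescent library exceeded each WT senescent library. Senescent cells were 2.48-fold higher in WT (log2 1.31, SE 0.23, adjusted p 0.000229) and 4.68-fold higher in KO cells (2.23, SE 0.21, adjusted p 8.19e-07). The interaction of 0.92 (SE 0.31) stood at the threshold, with an adjusted p of 0.0532. It passed under DESeq2 (0.00776) and under 8 other of the 18 alternatives, among them those without KO senescent replicate 2 (1.04, 0.0235), WT senescent replicate 1 (1.09, 0.0185) or KO control replicate 1 (1.14, 0.011), and was 0.95 (adjusted p 0.00499) without the 2 KO libraries that stood apart. Serpinb2 was 2.34-fold higher in KO than in WT senescent cells (log2 1.22, SE 0.20, adjusted p 0.000516) and did not differ detectably in control cells (0.31, 95% interval −0.21 to 0.83).

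Plau, the gene of uPA, fell in WT senescent cells. WT control libraries had 46, 45.1 and 52.6 CPM, and WT senescent ones 31.9, 31.3 and 29.7 CPM. In KO cells it was 66.6, 50.1 and 50.4 CPM in control and 53.4, 46.4 and 68.8 CPM in senescent libraries. WT senescent libraries were below all others, and the KO control range lay inside the KO senescent one. The WT change was −0.63 on the log2 scale (SE 0.15, adjusted p 0.00516), and the KO change was 0.02 with a 95% interval of −0.31 to 0.34 (adjusted p 0.938). The interaction was 0.64 (SE 0.21, adjusted p 0.0578). It passed without KO senescent replicate 2 (0.76, 0.0117) or KO control replicate 1 (0.79, 0.00992), with DESeq2 (0.67, 0.00232) or its size factors (0.67, 0.0498), and without the 2 KO libraries that stood apart (0.61, 0.000125), which held the highest Plau levels of their groups. Plau was 1.81-fold higher in KO than in WT senescent cells (log2 0.86, SE 0.15, adjusted p 0.00211), a difference that passed under all 18 alternatives.

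Plaur, the gene of the uPA receptor, moved in opposite directions in the genotypes. WT control libraries held 148, 146 and 155 CPM, and WT senescent ones 112, 105 and 108 CPM. In KO cells it was at 128, 101 and 100 CPM in control and 136, 125 and 159 CPM in senescent libraries. The WT groups were far apart, the KO groups overlapped through control replicate 1, and the KO control libraries were all below the WT control ones. Plaur fell by 0.47 in WT cells (SE 0.09, adjusted p 0.000782) and rose by 0.35 in KO cells (SE 0.09, adjusted p 0.00604) on the log2 scale, and the interaction was 0.82 (SE 0.13, adjusted p 0.000864). It was lower in KO than in WT cells in the control state (−0.44, SE 0.10, adjusted p 0.00696) and higher in the senescent state (0.37, SE 0.09, adjusted p 0.011). All 5 comparisons passed under every alternative tried for them, and without the 2 KO libraries that stood apart the interaction was 0.84 (adjusted p 1.97e-08).

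Plat, the gene of tPA, differed by genotype and little by senescence. Libraries of WT control cells held 33.5, 32.1 and 28.2 CPM, and WT senescent ones 38.8, 37.3 and 32.4 CPM. In KO cells it was at 84.5, 75.8 and 85 CPM in control and 96.7, 92.5 and 94.3 CPM in senescent libraries. The lowest KO library was thus far above the highest WT library. Plat was 2.61-fold higher in KO cells in both states (log2 1.38, SE 0.07, adjusted p 3.33e-11 in control and 4.21e-11 in senescent cells). With senescence it rose by 0.21 in each genotype (SE 0.08, adjusted p 0.0211 in WT, and SE 0.07, adjusted p 0.0128 in KO cells), and the 95% interval of the interaction was −0.21 to 0.21. The WT rise did not pass without WT senescent replicates 1 (0.16, 0.121) or 2 (0.19, 0.0761) or WT control replicate 3 (0.14, 0.129), nor with only the WT groups in the fit (0.18, 0.0884), and the KO rise did not pass without KO control replicate 2 (0.15, 0.0974). The genotypes were deposited in separate tables, so genotype and a difference in handling between the tables cannot be told apart for this gene or for any other KO and WT difference given here.

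**Figure D2:**
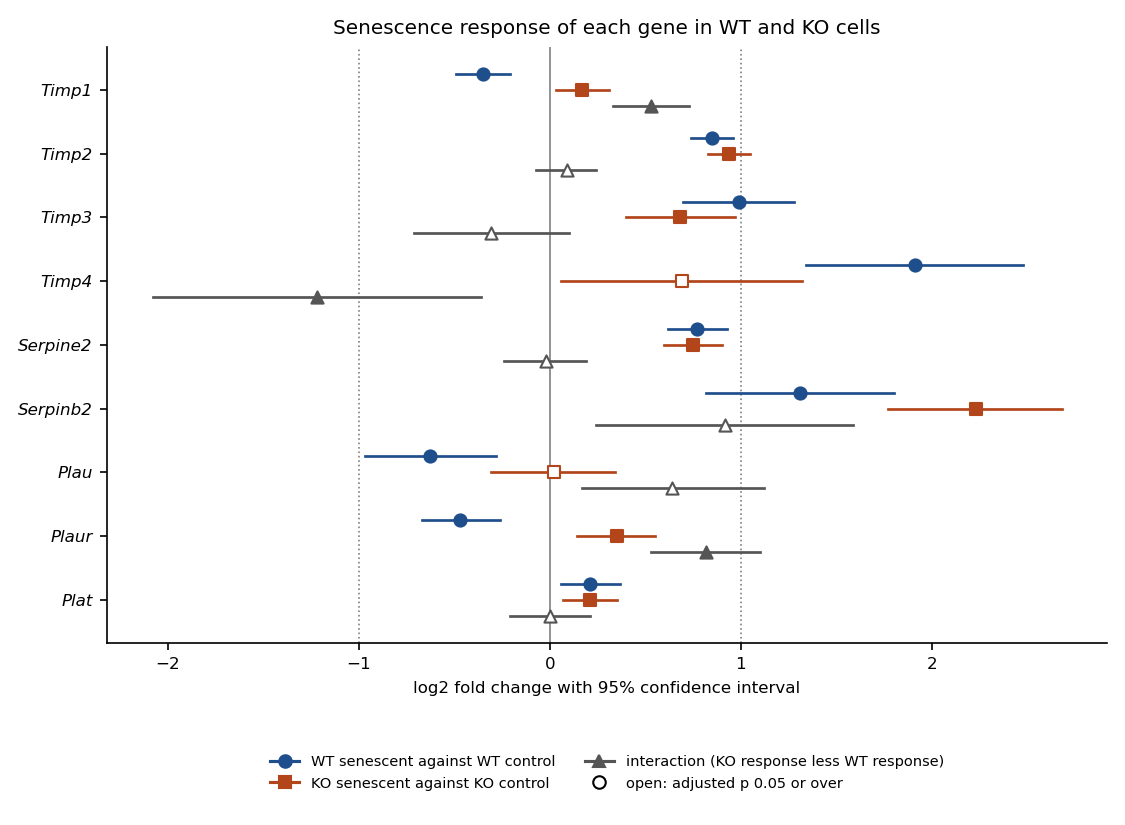
Log2 fold change with 95% confidence interval (x axis) of each gene (y axis) for senescent against control cells in WT (circles) and KO cells (squares) and for the interaction (triangles), with open symbols for an adjusted p of 0.05 or over and dotted lines at the fold threshold. Timp2 and Serpine2 have like responses in both genotypes, Timp1 and Plaur lie on opposite sides of 0, and Timp4 has the one interaction beyond the threshold, −1.22.

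Between genotypes, control cells differed in 3 of the 9 genes. Timp2 and Plat were higher and Plaur lower in KO control cells, where 8.07% of all genes tested were higher and 4.96% lower, and Plat was called (2.54% of all genes). Senescent cells differed in 8 of the 9 genes, with Serpine2 the one that did not pass. There, Timp1, Timp2, Serpinb2, Plau, Plaur and Plat were higher in KO cells (11.9% of all genes) and Timp3 and Timp4 lower (11.8%), and Plat, Serpinb2 and Timp4 were called (3.48%). The median KO against WT log2 fold change of the 9 genes was 0.02 in control and 0.37 in senescent cells, beside 0.006 and −0.017 over all genes. Without the 2 KO libraries that stood apart, Plaur was at −0.57 in control and 0.27 in senescent cells, Plau at 0.69, Serpinb2 at 1.03 and Timp4 at −1.52 in senescent cells, all still past the adjusted p, and Serpinb2 was at 0.09 in control cells (adjusted p 0.812). The senescent comparison uses the same KO and WT senescent libraries as the responses above and is not separate evidence of them.

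**Figure D3:**
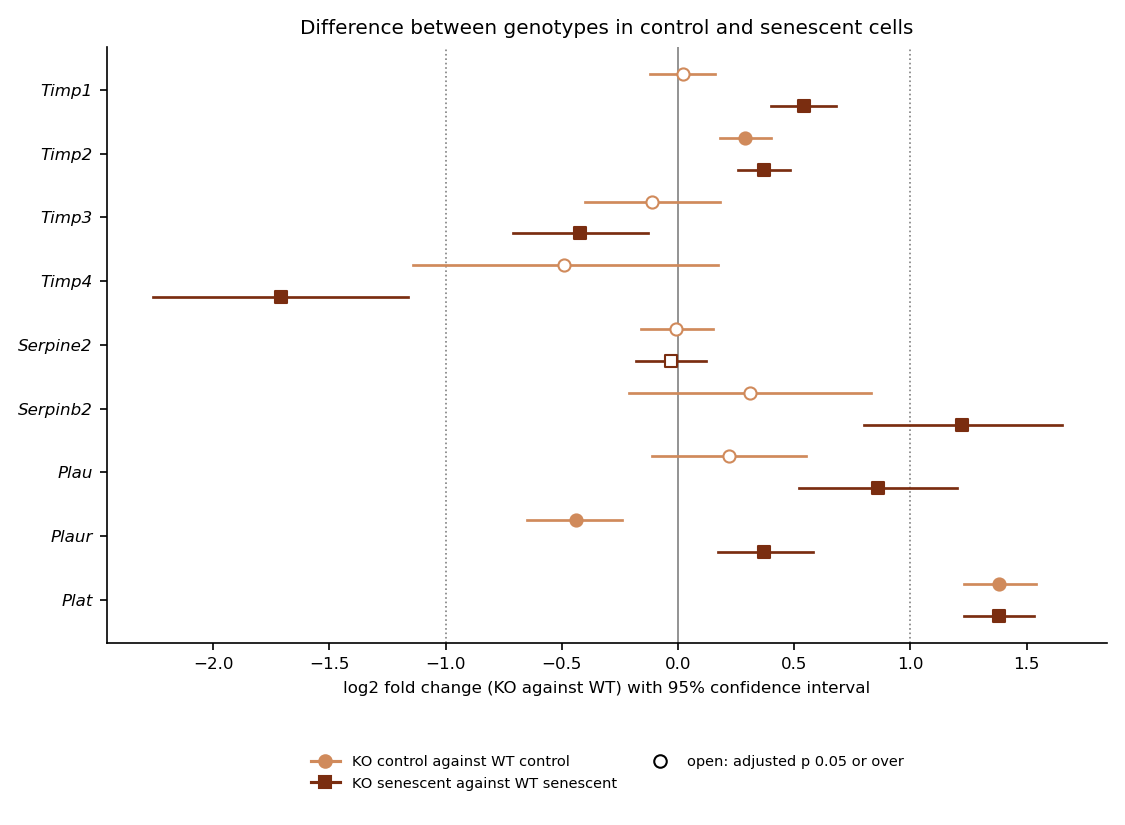
Log2 fold change of KO against WT cells with 95% confidence interval (x axis) of each gene (y axis) in control (circles) and senescent cells (squares), with open symbols for an adjusted p of 0.05 or over and dotted lines at the fold threshold. Plat sits at 1.38 in both states, Plaur changes side, and Timp4 and Serpinb2 pass the fold threshold in senescent cells at −1.71 and 1.22.

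The make-up of the TIMP messages was described per length, without a test. Timp1 made up 69.5% ± 1.31 of the summed TIMP level (CPM per kb) in WT control cells and 48.6% ± 0.983 in WT senescent cells. In KO cells its share was 67.9% ± 4.16 in control and 57.1% ± 1.56 in senescent cells. The library ranges of control and senescent cells did not overlap in either genotype (68.1% to 70.6% and 47.8% to 49.7% in WT, 64.7% to 72.6% and 55.8% to 58.8% in KO). The share of Timp2 went from 16.8% to 27% in WT and from 19.8% to 28.2% in KO cells. The share of Timp3 went from 13.7% to 24.3% in WT and from 12.3% ± 2.74 to 14.7% ± 2.24 in KO cells, where the spread covers the difference. The summed TIMP level was 1799 ± 52.5, 2014 ± 22.8, 1863 ± 86.6 and 2499 ± 128 CPM per kb in the groups WT control and senescent, then KO control and senescent. Shares depend on the length used, and with the longest transcript Timp1 made up 62.9%, 41%, 61.9% and 51.1% in the same order. The share of Timp3 was then 21.3%, 35.2%, 19.2% and 22.6%, over that of Timp2 in WT senescent cells (23.8%). Of the summed plasminogen activator level, Plat made up 19.9% ± 2.64 in WT control, 30.6% ± 1.22 in WT senescent, 36% ± 3.29 in KO control and 39.3% ± 4.58 in KO senescent cells.

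**Figure D4:**
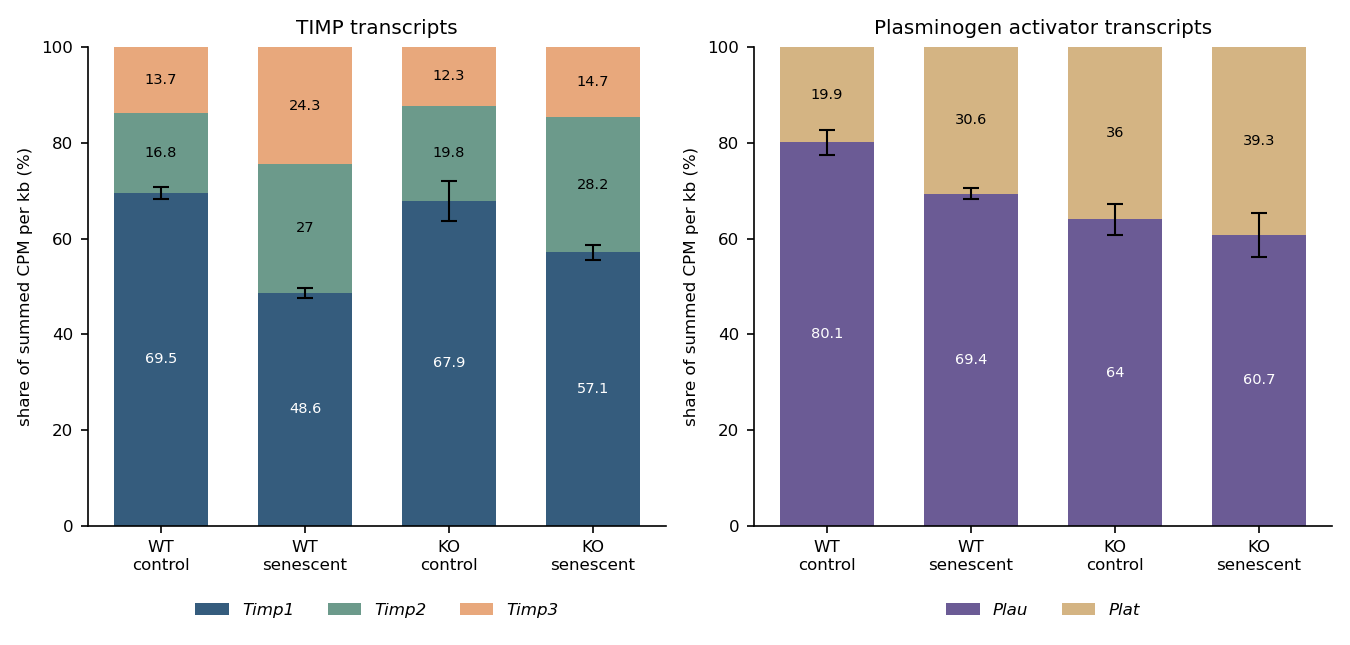
Share of the summed CPM per kb of exon (y axis, percent, from 0) held by Timp1, Timp2 and Timp3 (left) and by Plau and Plat (right) in the 4 groups, as means of 3 libraries with SD bars on the lowest segment. Timp4, at most 0.0368% of the TIMP sum, is too small to draw, and the Timp1 segment is smallest in WT senescent cells at 48.6%.

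The rest of the plasminogen system was taken as a list of 13 genes, 8 of which passed the low count filter. Plg, the gene of plasminogen, which is made mainly in liver, had 0 to 2 counts per library and was not tested, nor were Serpina5, Cpb2, Klkb1 and F12. Of the 8 tested genes 4 rose and 3 fell with senescence in WT cells, and 5 rose and 1 fell in KO cells, beside 29.2% and 27% of all genes in WT and 28.5% and 28.6% in KO cells. Serpini1, which encodes neuroserpin, an inhibitor of tPA, rose in KO cells from 1.53 ± 0.406 to 4.55 ± 0.67 CPM (1.55, adjusted p 1.21e-05), while WT control and senescent cells had 2.3 ± 0.705 and 2.6 ± 0.223 CPM, with an interaction of 1.38 (adjusted p 0.00647). S100a10, whose protein pairs with annexin A2 as a plasminogen-binding complex at the cell surface, fell in WT cells from 134 ± 10.7 to 80.8 ± 3.23 CPM (−0.73, adjusted p 3.56e-06) and had 144 ± 16.8 and 152 ± 16.5 CPM in KO control and senescent cells (0.08, adjusted p 0.441), with an interaction of 0.81 (adjusted p 0.000376). Vtn, the gene of vitronectin, which binds uPAR, was lower in WT senescent cells (−1.35, adjusted p 0.0489), from 16.6, 16.6 and 3.88 CPM in control to 4.69, 6.26 and 3.58 CPM, with WT control replicate 3 inside the senescent range. Serpinf2, which encodes the plasmin inhibitor α2-antiplasmin, passed in both genotypes, but control libraries held at most 2 counts and no fold is given. It reached 0.448 ± 0.326 CPM in WT senescent and 0.396 ± 0.0504 CPM in KO senescent cells. The interaction passed for 3 of the 8 genes, all higher (9.24% of all genes), and 4 were higher in KO than in WT cells in the senescent state (11.9%). In the control state the adjusted p of the genotype difference ran from 0.0789 (Mrc2) to 0.982 (Anxa2).

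The enzymes that TIMPs inhibit and their partners were taken as a list of 23 genes, of which all but Mmp12 were tested. With senescence 10 rose and 6 fell in WT cells (29.2% and 27% of all genes), and 8 rose and 7 fell in KO cells (28.5% and 28.6%). Their median log2 fold changes were 0.18 and 0.16, beside 0.025 and −0.003 over all genes. Mmp15, which encodes a membrane-type MMP, went up in WT cells from 1.75 ± 0.457 to 8.64 ± 0.89 CPM and in KO cells from 1.83 ± 0.283 to 8.92 ± 0.495 CPM (log2 2.29 and 2.28, adjusted p 6.43e-10 and 4.92e-10). The collagenase gene Mmp13 rose by 2.01 in WT (adjusted p 2.41e-05) and by 2.23 in KO cells (adjusted p 3.31e-06), at levels of at most 4.01 CPM. Mmp8, another collagenase gene, was at 0.401 ± 0.155 CPM in WT senescent cells, where the WT control libraries held at most 1 count. Adam12, which encodes a membrane-bound disintegrin and metalloproteinase, fell in WT cells from 449 ± 18.3 to 113 ± 9.15 CPM and in KO cells from 401 ± 10.3 to 112 ± 7.45 CPM (−1.99 and −1.83, adjusted p 5.8e-16 and 1e-15). Mmp23 and Mmp17 fell in both genotypes, by 0.74 and 0.79 in WT cells (adjusted p 2.45e-08 and 0.0107), and were called in KO cells (−1.42 and −1.17, adjusted p 7.49e-13 and 0.000315). The interaction passed for Mmp23 (−0.68, adjusted p 0.000133) and not for Mmp17 (−0.38, adjusted p 0.486).

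The interaction was higher for 3 and lower for 8 of these 22 genes, where 9.24% of all genes were higher and 11.7% lower. Mmp24, which encodes MT5-MMP, rose in KO cells by 2.25 (adjusted p 6.91e-07) and had an interaction of 2.40 (adjusted p 0.000234), with levels of 1.87 ± 0.238, 1.68 ± 0.37, 0.776 ± 0.274 and 3.65 ± 0.637 CPM in the groups WT control and senescent, then KO control and senescent. The gelatinase gene Mmp9 had an interaction of 1.48 (adjusted p 0.0044) and was at 1.59 ± 0.315, 1.86 ± 0.488, 1.34 ± 0.124 and 4.41 ± 0.73 CPM in the same order. Reck encodes a membrane-anchored inhibitor of MMPs that acts beside the TIMPs. WT control libraries held 85.2, 94.6 and 88.8 CPM, and WT senescent ones 215, 260 and 235 CPM, and at 60.1, 89 and 86.2 CPM in KO control and 92.3, 119 and 70.5 CPM in KO senescent libraries. As with Timp4, the WT senescent libraries stood above all others. Reck rose by 1.40 in WT (adjusted p 0.000333) with an interaction of −1.14 (adjusted p 0.0237), and senescent KO cells were below senescent WT cells (−1.33, adjusted p 0.00158). Between genotypes in control cells 9 of the 22 genes were higher and 3 lower in KO (8.07% and 4.96% of all genes), with the aggrecanase gene Adamts4 (1.20, adjusted p 7.05e-09) and Mmp24 (−1.28, adjusted p 0.00592) called, and in senescent cells 5 were higher and 4 lower (11.9% and 11.8%), with Mmp9 (1.24), Mmp24 (1.12) and Reck called.

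**Figure D5:**
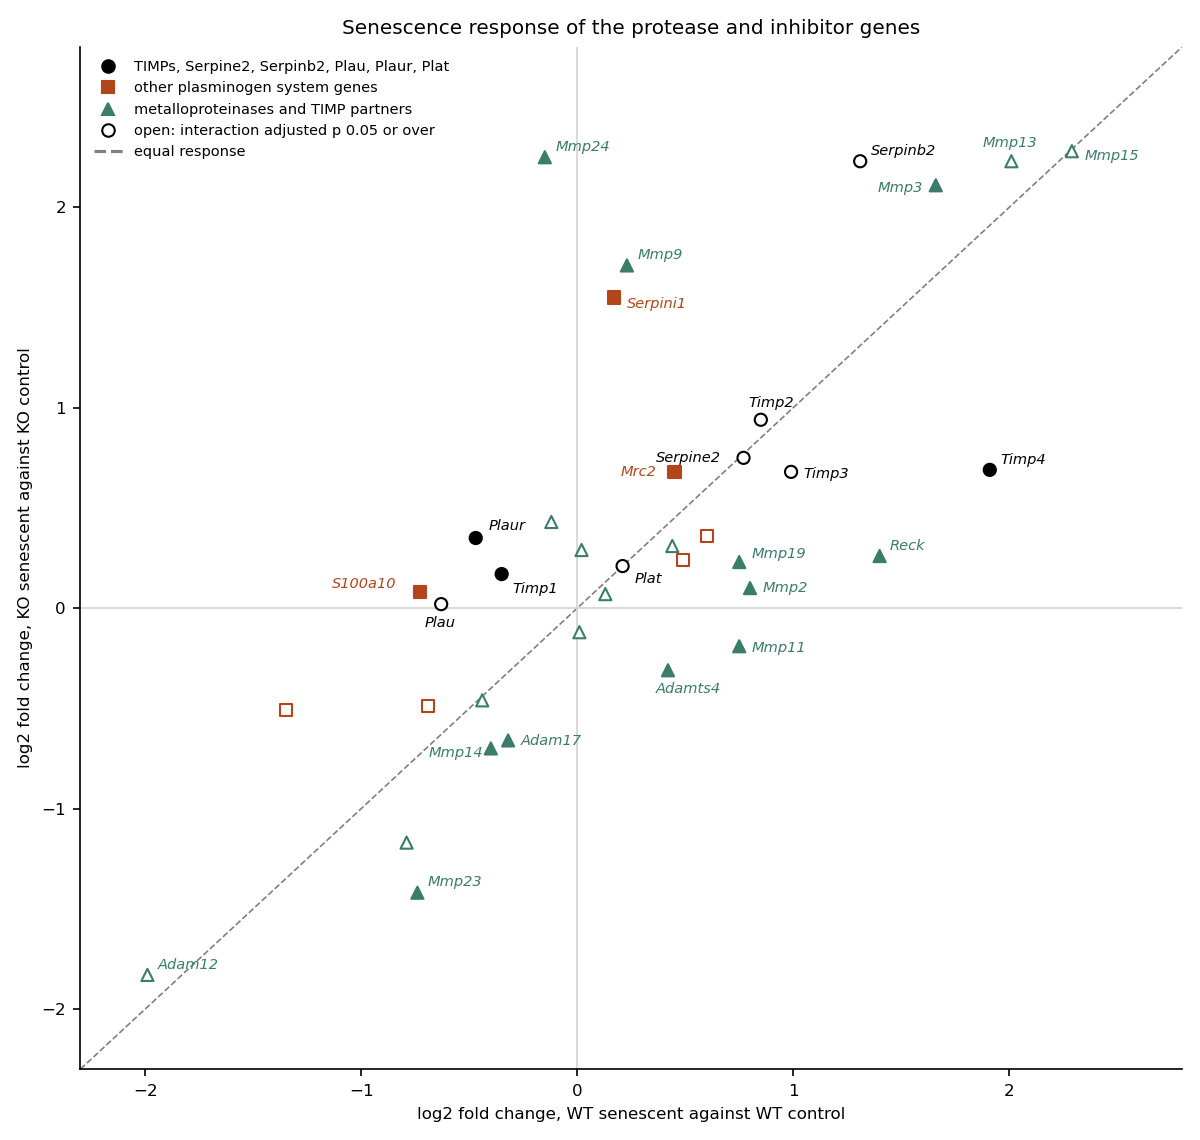
Log2 fold change with senescence in WT (x axis) and KO cells (y axis) of the 9 genes (circles) and of 28 tested genes of the plasminogen (squares) and metalloproteinase lists (triangles), filled where the interaction passed, with a dashed line for equal response. Serpinf2 and Mmp8 are not drawn because a control group held at most 3 counts per library. Plaur, Timp1 and S100a10 lie above the line with WT values under 0, and Timp4 and Reck lie well below it.

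The genes whose levels across the 12 libraries were most like each of the 9 were found by Pearson r of log2 CPM, among genes that averaged 5 CPM or more. These values only describe the pattern, since the libraries fall into the same 4 groups for every gene. Plat was most like Cry1, a repressor of the circadian clock (r = 0.988), and then Galnt17 (0.979). Timp1 was most like Ehd1 (0.981) and Ywhaz (0.977), Plau most like Tes (0.987) and Oaf (0.982), and Plaur most like Vapa (0.968) and Ttc9 (0.957). Timp2 was most like Sqor (0.995) and Hsd17b7 (0.993), and Timp3 most like C4b, which encodes complement C4 (0.994), and Gprasp1 (0.988). Timp4 was most like Npr3 (0.982) and Boc (0.972), Serpine2 most like 1500015O10Rik (0.996) and Crebl2 (0.992), and Serpinb2 most like Dusp6, which encodes a phosphatase of ERK (0.990), and Epb41l1 (0.989). No 2 of the 9 genes shared a most-like gene, but only 2 genes were taken for each, so this does not set their patterns apart. Among the 9 genes themselves r was highest for Timp1 with Plau and Timp2 with Serpinb2 (0.95 each), then Timp3 with Serpine2 (0.94). It was lowest for Timp4 with Plau (−0.91).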

How the data were processed

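RNA-seq was measured in 12 libraries of MAFs, and titles gave the group of each library. Per the labels and the methods of the study, reads were demultiplexed with bcl2fastq 2.17, trimmed with Trimmomatic 0.36 and mapped to GRCm38 with STAR 2.5.2b, and featureCounts assigned unique reads to exons. The authors deposited raw counts per gene, in 1 table per genotype. The annotation release and strand setting are not given in the sources used here. Reads without molecular identifiers are not independent molecules, so floors and intervals cover counting error and the spread between these libraries only.

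Counts were joined on gene identifier, filtered with filterByExpr (17416 genes kept) and scaled with TMM factors (trimmed mean of M-values). One fit with a mean per group was made over all 12 libraries with edgeR 4.0.16 in R 4.3.3 (robust quasi-likelihood F-test), and p-values were adjusted over all genes tested. The SE is the absolute log2 fold change divided by the square root of F. Thresholds (adjusted p under 0.05, absolute log2 fold change over 1) are those of the study's methods. CPM uses TMM-scaled totals, and likeness used log2 CPM with a prior count of 2. Length is the union of GENCODE M21 exons. The fit was tested on simulated data. Alternatives were DESeq2 1.42.0, its size factors, no filter, no fold threshold, replicate blocks, fits of the compared groups alone, each library left out and, chosen after seeing the data, both KO libraries that stood apart left out. Of the pathway lists, at most 3 called genes per comparison and direction, those with the largest fold change, were named, plus the 2 genes most like each member. S100a10, Mrc2, Anxa2 and the fold changes of Syn2 fall outside that rule and were chosen after their values were seen. A gene of the plasminogen list is not reported here and was left out of the list's counts. The members and lists were chosen with earlier results of these data known.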

Additional observations from a re-analysis of the deposited data

Results flagged for a closer look

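In 3 genes the senescence response differed between genotypes by the interaction test of edgeR. The difference, KO less WT, was 0.53 for Timp1, which fell in WT cells, and 0.82 for Plaur, which fell in WT and rose in KO cells. It was −1.22 for Timp4, which rose in WT cells. The adjusted p was 0.000682, 0.000864 and 0.0396. The difference passed under all 18 alternatives for Timp1 and Plaur, and under 9 of the 18 for Timp4. What lies behind these differences was not tested.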

How the results depend on the processing

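Without the fold threshold, the genes past the adjusted p numbered 9 and 7 for senescence in WT and KO cells, 3 for the interaction, and 3 and 8 for KO against WT control and senescent cells. With each library left out in turn, called genes ranged from 2 to 3 for senescence in WT cells and from 0 to 2 for the interaction, and the other 3 counts did not change. The replicate block, within each genotype or shared by all groups, left 0 called interactions, since Timp4 then had an adjusted p of 0.0764 and 0.0507. Same-numbered libraries correlated at 0.0147, 0.0432 and 0.108 in WT and −0.125, 0.0452 and −0.0953 in KO cells, so the numbers were not taken as pairs. The cause of these changes was not tested.

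Signs turned in 7 differences near 0 that passed nowhere. With a library left out, KO against WT control ranged from −0.0737 to 0.0724 for Timp1, −0.217 to 0.0328 for Timp3 and −0.0668 to 0.0774 for Serpine2, KO against WT senescent from −0.0624 to 0.00586 for Serpine2, the KO response of Plau from −0.16 to 0.159, and the interaction from −0.108 to 0.0368 for Serpine2 and −0.0757 to 0.0635 for Plat. Without both KO libraries that stood apart, the values in control cells were −0.0745 (Timp1), 0.032 (Timp3) and 0.0736 (Serpine2), the Plau response was −0.0126 and the Plat interaction 0.0245. DESeq2 size factors and DESeq2 gave 0.00714 and 0.00945 for the Serpine2 interaction and 0.0285 and 0.0303 for that of Plat, which was 0.000179 with the replicate block within each genotype. Plau in KO cells was at −0.00135 without a filter. DESeq2 size factors moved the median of all genes by at most 0.030. Depth limits Timp4, with 13 to 148 counts per library.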
